A study of Homo sapiens with 4 samples.

Results

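Polycomb repressive complex 2 (PRC2) is the histone methyltransferase that places methyl groups on lysine 27 of histone H3, a mark of silenced genes. Its core holds a catalytic subunit, EZH2 or EZH1, with EED, SUZ12 and one of the histone chaperones RBBP4 and RBBP7, and accessory subunits divide it into forms that bind chromatin in different ways. In T-cell acute lymphoblastic leukemia (T-ALL), loss-of-function lesions of EZH2, SUZ12 and EED are known, so the complex counts as a tumor suppressor there. The transcripts of 10 PRC2 genes were followed here in leukemia cells that had passed through narrow pores: EZH2, EZH1, EED, SUZ12, RBBP4, RBBP7, MTF2, PHF19, JARID2 and AEBP2. Each had 1 probe set, so that 10 of 21448 probe sets were studied. The platform annotation named 17687 genes, and 9 of the members were among them, all but EED.

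The ORM (one-round migration) group was 2 arrays of Jurkat cells, an established human T-ALL line, taken from under a 3 μm pore filter after 24 h. The control group was 2 arrays of Jurkat cells that had not migrated, which the sample labels describe as a suspension culture in the same serum-containing medium and the series design as non-migrated cells from the same inserts. Total RNA of each sample was measured on 1 human Clariom S array, and the values are log2 signals per probe set as deposited. The labels call the arrays of a group biological replicates without saying that they came from separate cultures, so the p-values reflect the spread among 4 arrays of 1 cell line, which may be technical.

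The samples were grouped by their titles and source names, because a free-text description on the same labels names other treatments for some of them. The median of 11 T cell markers was 9.32 and 9.29 in ORM arrays, against 9.41 and 9.40 in control arrays. Their summed linear signal was 12737 and 13214 in ORM arrays, against 12298 and 11765 in control arrays. Of 6 B cell markers 4 were measured, and PAX5 and CD79A were lower in both ORM arrays than in both control arrays, while CD79B and MS4A1 overlapped. Their summed signal, 83.3% to 86.8% of it from CD79A, was 992 and 1108 in ORM arrays, against 1265 and 1402 in control arrays, and its part in the results below was not tested. The medians of the myeloid, the erythroid and the epithelial and fibroblast markers lay between 4.96 and 5.36 on every array. All arrays were of Jurkat cells, so the marker signals describe levels in that line and not shares of different cell types. In bulk RNA, fewer cells holding a transcript and less of it per cell cannot be told apart. The control arrays stood further from each other than the ORM arrays did: the SD of the log2 difference over all probe sets was 0.248 between the ORM arrays and 0.404 between the control arrays. Control replicate 2 was the array farthest from the other 3, so each difference is also given against each control array alone.

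EED was named in a different way from the other 9 members. The platform annotation does not list its probe set, and the name came from the study's supplementary list of genes called altered in ORM cells, where the entry holds EED together with MIR6755. The hairpin of MIR6755 lies at chr11:86278333-86278398 of GRCh38.p14, inside the span of EED on the same strand (chr11:86244753-86287615), and the array value does not say how the signal divides between them. A probe set that entered through a list of called genes had to be called, so the difference of EED below is a description and supports nothing. The other 9 members were named by the platform annotation.

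The promoters are shown to describe what the members share beyond their place in the complex, with no bearing on which of them was called. RefSeq promoter windows of GRCh38.p14, which span 250 bases before and 50 bases after each start, were found for 10 of 10 members, 15 windows in all. EED has 1 window, and its 250 upstream bases (chr11:86244503-86244752, plus strand) are printed with the core of the cAMP response element, TGACGT, in capitals.

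EED: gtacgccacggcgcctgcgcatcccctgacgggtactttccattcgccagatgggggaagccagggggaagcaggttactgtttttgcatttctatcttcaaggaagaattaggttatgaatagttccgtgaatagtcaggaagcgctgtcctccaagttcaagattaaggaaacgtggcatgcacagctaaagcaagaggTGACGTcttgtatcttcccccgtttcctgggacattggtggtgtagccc

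The capitals begin 49 bases before the start. This word, searched on both strands, was in 7.98% of 35116 promoter windows of the genome and in windows of 4 members (EED, EZH2, PHF19 and JARID2). EED's window held 16 CpG dinucleotides, the fewest among the members, whose other windows held 24 to 54, against a median of 14 over all windows.

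E2F factors drive genes of S phase, and EZH2 and EED are known E2F targets. A word for an E2F site (TTTGGCGC, TTTCGCGC, TTTCCCGC or TTTGCCGC, on either strand) was in 3.31% of all windows and in 6 of the 15 member windows, 1 for each of 6 genes. Each of these words holds a CpG, and all 15 member windows held more CpG than the median of all windows. The share over all windows is therefore not a like comparison, here and for the GC box below. The 6 stretches of 30 bases follow, each read along the strand of its gene, with the word or its reverse complement in capitals.

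EZH2: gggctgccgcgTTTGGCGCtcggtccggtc
EZH1: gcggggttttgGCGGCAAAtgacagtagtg
SUZ12: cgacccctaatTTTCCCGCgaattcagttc
MTF2: accggcagtccGCGGGAAAccaaaatggcg
PHF19: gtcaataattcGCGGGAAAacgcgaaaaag
AEBP2: caaggcgacgtTTTGCCGCgatccccctgc

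These lie at chr7:148884272-148884301 (minus strand, EZH2), chr17:42745137-42745166 (minus, EZH1), chr17:31936807-31936836 (plus, SUZ12), chr1:93079277-93079306 (plus, MTF2), chr9:120877322-120877351 (minus, PHF19) and chr12:19440438-19440467 (plus, AEBP2). The starts used for AEBP2 and PHF19 lie inside the spans of these genes. None of the 6 matches overlapped another motif searched. No such word was in the windows of EED, RBBP4, RBBP7 or JARID2, which says only that these letters are not in those windows. The CCAAT box was in 10 member windows and 34.6% of all windows, the GC box GGGCGG in 13 member windows and 45% of all, and CCGGAAG, an ETS word, in 2 member windows and 10.3% of all. EED and MTF2 were the members with no GC box. A match is a description of the letters and not a measured binding site.

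**Figure D1:**
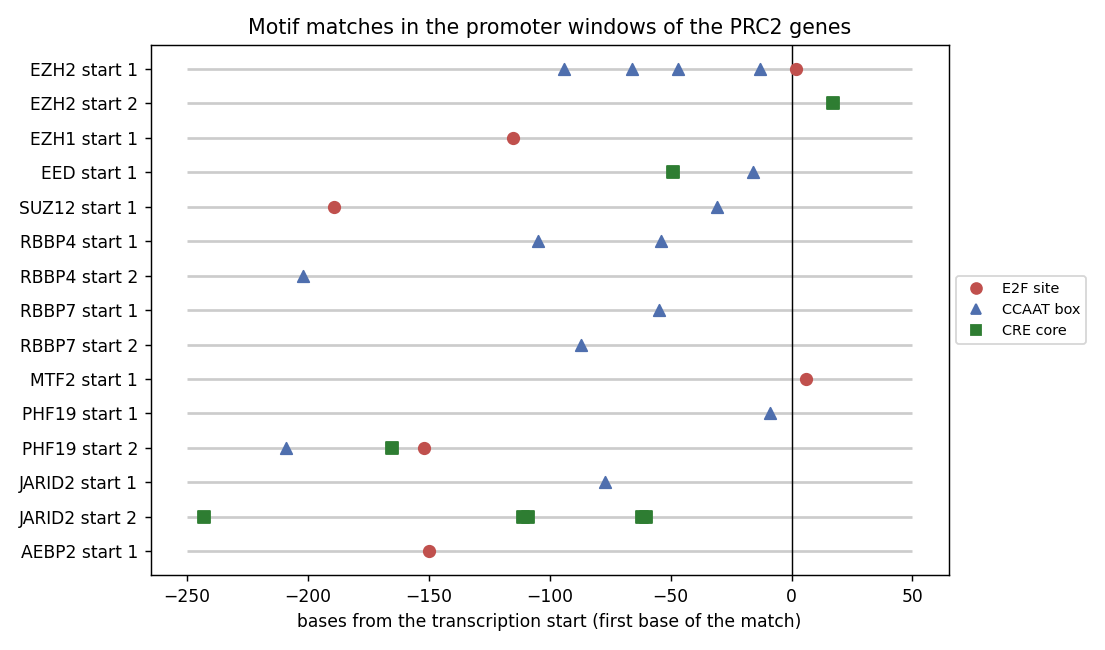
Positions of E2F words, CCAAT boxes and cAMP response element cores (CRE core) in the 15 promoter windows of the PRC2 genes, as the distance in bases of the first base of each match from the transcription start. Windows of the same gene are numbered as starts, 6 windows hold an E2F word, and the CRE core of EED stands at -49.

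In ORM cells, 1 of 10 members passed the threshold of a fold change over 1.8 with an unadjusted limma p under 0.05, and that was EED. None of the 9 members named by the platform annotation passed, with 0 at an unadjusted p under 0.05 among them. Over all probe sets, 151 passed (0.704%), of which 91 were higher in ORM (0.424%) and 60 lower, and with each array centred on its own median the split was 123 higher and 42 lower. No probe set reached an adjusted p under 0.05 (Benjamini-Hochberg over all 21448 by limma, with the lowest value at 0.428), while 5.91% were higher and 5.5% lower at an unadjusted p under 0.05. The methods' t-test also put 1 member, EED, past both limits. An exact two-sided permutation test of 2 arrays against 2 cannot go below p = 0.333, so no single gene could pass by that test.

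EZH2, the main catalytic subunit in dividing cells, had log2 signals of 9.21 and 9.03 in ORM arrays, against 8.97 and 9.02 in control arrays. Both ORM arrays were above both control arrays, but by as little as 0.01 between the closest pair of arrays. The difference was 0.13 (SE 0.16, limma adjusted p = 0.766), and its 95% interval of -0.27 to 0.52 covers folds of 0.831 to 1.43. EZH1, the catalytic subunit that prevails in resting cells, had 6.91 and 7.21 in ORM arrays, against 6.86 and 7.55 in control arrays. Its groups overlapped, with both ORM values between the control values. The difference of EZH1 was -0.15 (SE 0.26, adjusted p = 0.837) and turned with the control array used, at 0.20 against control replicate 1 alone and -0.49 against control replicate 2 alone.

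EED, which reads the trimethylated lysine through its aromatic cage and stimulates the enzyme, had 6.14 and 5.99 in ORM arrays, against 4.63 and 5.01 in control arrays. The lower ORM array was 0.98 above the higher control array. The means were 6.07 ± 0.11 in ORM arrays and 4.82 ± 0.27 in control arrays (SD, n = 2 each), a difference of 1.25 (SE 0.19, 95% interval 0.78 to 1.71) and a fold of 2.37 (1.72 to 3.26). By unadjusted p it ranked 5 of 21448 probe sets, and its adjusted p was 0.428. The difference was 1.44 against control replicate 1 alone and 1.06 against control replicate 2 alone, both past the fold threshold. On its arrays the EED signal stood at the 52.3 and 50.4 percentiles of all probe sets in ORM arrays and at the 30.0 and 36.0 percentiles in control arrays.

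SUZ12, the scaffold on which the core assembles, had 9.10 and 9.16 in ORM arrays, against 8.77 and 8.92 in control arrays. The groups did not overlap. The difference of 0.29 (SE 0.16, 95% interval -0.10 to 0.67) did not pass the test (adjusted p = 0.502), and its upper bound, a fold of 1.59, lies below the threshold of 1.8.

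RBBP7 and RBBP4 are WD40 histone chaperones that PRC2 shares with deacetylase and chromatin assembly complexes. RBBP7 had 8.91 and 9.00 in ORM arrays, against 8.75 and 8.63 in control arrays, again with no overlap, and a difference of 0.27 (SE 0.16, adjusted p = 0.521). RBBP4 had 10.27 and 10.16 in ORM arrays, against 10.14 and 10.23 in control arrays, which overlapped. Its difference of 0.03 (SE 0.16, 95% interval -0.36 to 0.42) was the smallest among the members, and under quantile normalization it was -0.05.

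**Figure D2:**
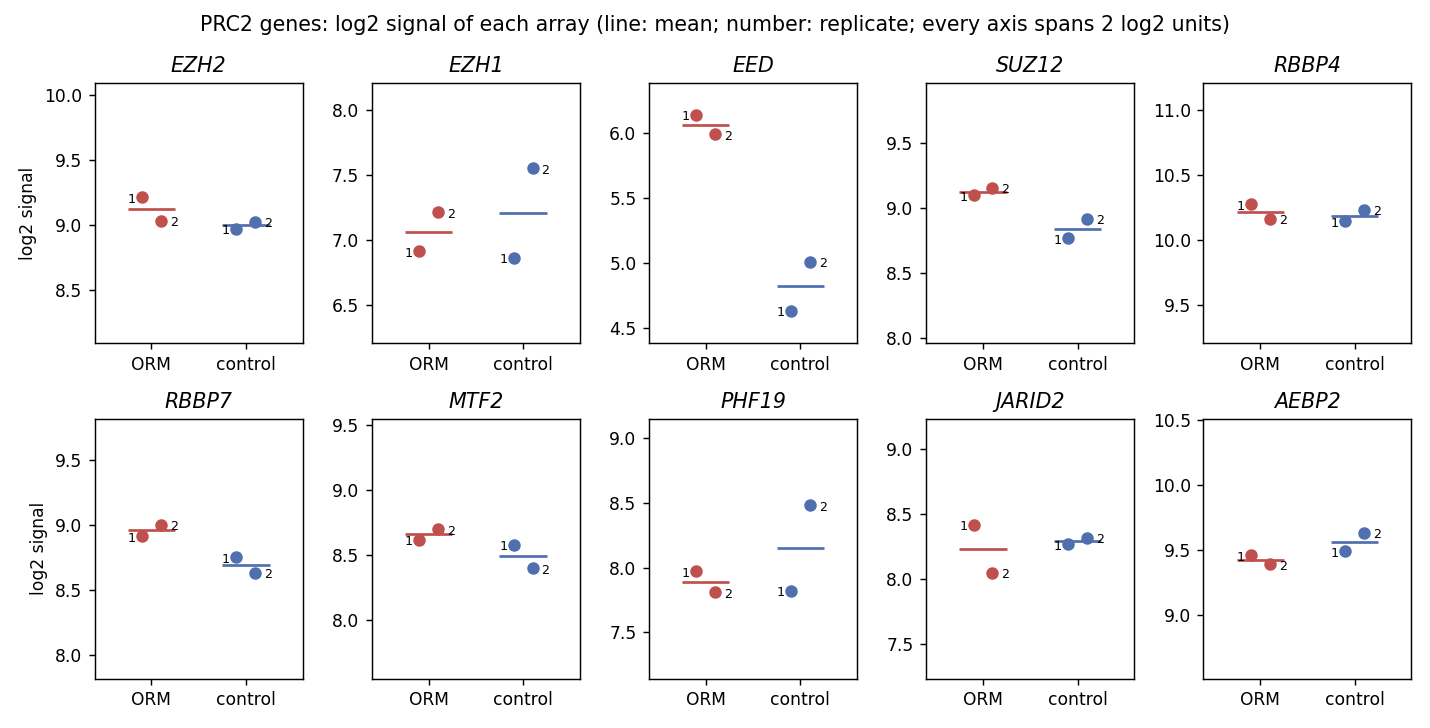
Log2 signal of each PRC2 gene on the 2 ORM arrays (left, red) and the 2 control arrays (right, blue), with the replicate number beside each point and a line at the group mean; each panel has its own axis of the same span. EED shows ORM points of 6.14 and 5.99 over control points of 4.63 and 5.01, while PHF19 shows control replicate 2, at 8.48, apart from the other 3 arrays.

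MTF2 and PHF19 are Polycomb-like proteins of the PRC2.1 form, which bring the complex to unmethylated CpG-rich DNA. MTF2 had 8.62 and 8.70 in ORM arrays, against 8.58 and 8.40 in control arrays, and a difference of 0.17 (SE 0.16, adjusted p = 0.676). The ORM arrays were above the control arrays, by 0.04 for the closest pair. PHF19 had 7.97 and 7.81 in ORM arrays, against 7.82 and 8.48 in control arrays. Its control arrays differed by 0.66, more than the difference between the groups of -0.26 (SE 0.24, adjusted p = 0.668). Without control replicate 2 the difference of PHF19 was 0.07, and against that array alone it was -0.59.

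JARID2 and AEBP2 belong to the PRC2.2 form, which recognizes ubiquitinated histone H2A. JARID2 had 8.42 and 8.05 in ORM arrays, against 8.27 and 8.32 in control arrays. It was the member whose ORM arrays lay farthest apart, with the control values between them, and the difference was -0.06 (SE 0.19, adjusted p = 0.913). AEBP2 had 9.46 and 9.39 in ORM arrays, against 9.49 and 9.63 in control arrays. This was the single member with both ORM arrays below both control arrays, by 0.03 for the closest pair, and its difference of -0.14 (SE 0.16, adjusted p = 0.739) did not pass the test.

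**Figure D3:**
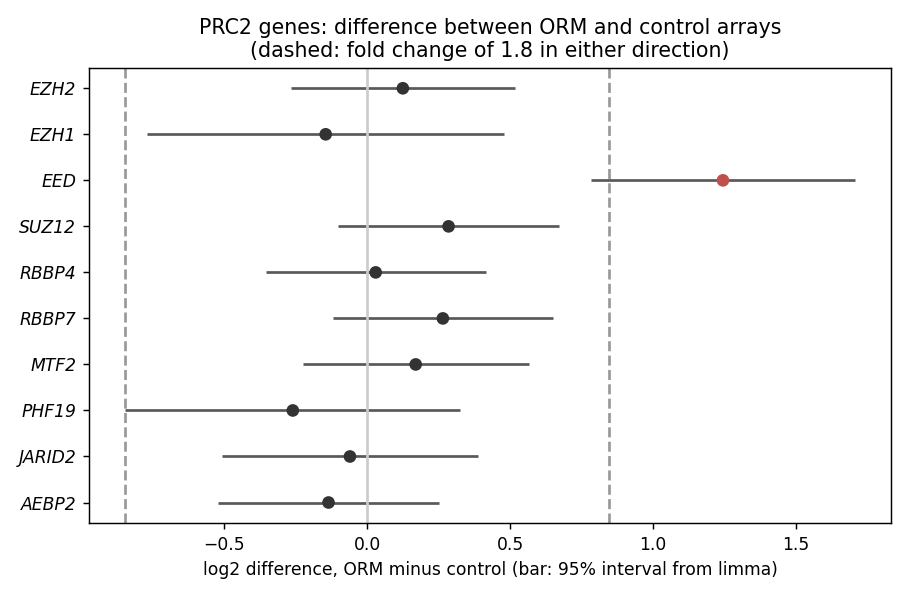
Difference in log2 signal of each PRC2 gene, ORM minus control, with 95% intervals from limma (n = 2 arrays each) and dashed lines at a fold of 1.8 in either direction. EED stands at 1.25, and the 9 other intervals include 0 and lie inside the dashed lines, that of PHF19 by a narrow margin with its lower bound at -0.85.

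For 9 of the 9 members other than EED the 95% interval lay inside the 1.8-fold limit in both directions (a log2 difference of 0.848), that of PHF19 with a lower bound of -0.846. The count was 8 after quantile normalization, with PHF19 outside at -0.91, and 8 with a replicate block. It was 3 without ORM replicate 1, 4 without ORM replicate 2, 7 without control replicate 1 and 9 without control replicate 2. Without control replicate 1, PHF19 had an unadjusted limma p of 0.0236 at a difference of -0.59, short of the fold threshold. With all arrays the intervals leave room for smaller differences, up to a fold of 1.59 for SUZ12 and down to a fold of 0.556 for PHF19. Both ORM arrays were above both control arrays in 5 members (EED, EZH2, SUZ12, RBBP7 and MTF2) and below in 1 (AEBP2), while 4 overlapped. The place of EED among them followed from how it was named, and without it 4 of the 9 other members were above. Over all probe sets 21.4% were above and 24.2% below in this way. Among named genes with a mean log2 signal of 5 or more it was 29.3% and 21.5%, and the members' median signal was 8.7. After quantile normalization 3 members were above and 1 below (30% and 10%), against 23% and 21.4% of all named genes. Among named genes with a mean log2 signal of 5 or more the shares were then 26.1% and 23.6%. These members include EED, whose difference was then 1.31 and whose place followed from how it was named. The median difference over the members was 0.08, against -0.03 over all named genes, and 0.03 without EED. After quantile normalization the members' median was -0.02, so the median has no fixed direction.

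The spread between replicates was itself uneven over the complex. The control arrays differed by more than the ORM arrays did in 7 of 10 members, and by more than the 2 group means did in 5. The difference changed its sign with the control array used in 3 members, EZH1, RBBP4 and PHF19. EZH1 and PHF19 had the widest control gaps, 0.69 and 0.66, both with control replicate 2 the higher array, while EZH2 and JARID2 had gaps of 0.05.

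**Figure D4:**
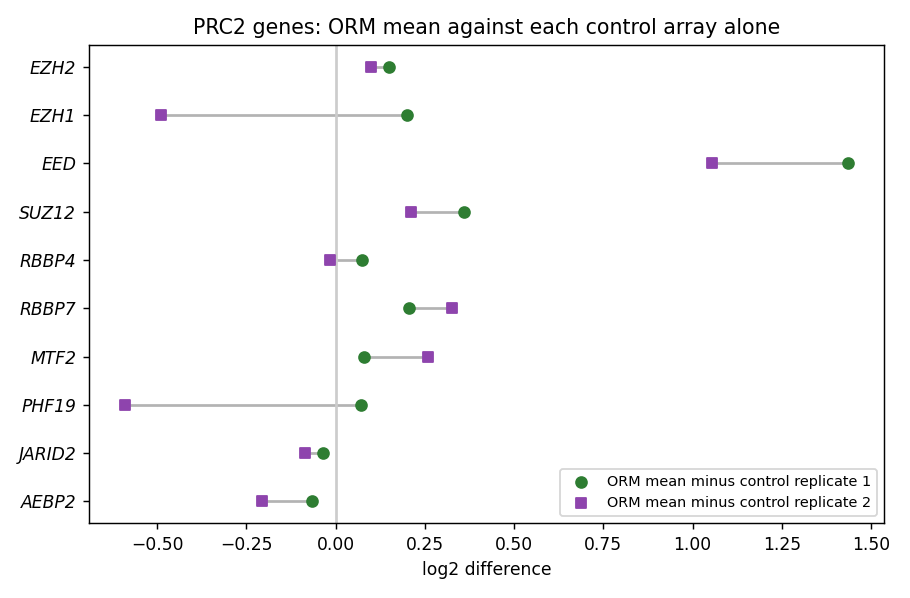
Mean log2 signal of the 2 ORM arrays minus that of control replicate 1 alone (circles) and control replicate 2 alone (squares) for each PRC2 gene. EED stays above 1 against either array, at 1.44 and 1.06, whereas EZH1, RBBP4 and PHF19 have points on both sides of 0.

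The 5 named genes whose values were closest in pattern to EED over the 4 arrays, by Euclidean distance of log2 values centred on each gene's mean, were ESF1 (0.251), CYP4V2 (0.359), PDCD5 (0.372), ZNF549 (0.373) and ZNF416 (0.387). ESF1, a nucleolar factor of ribosomal RNA processing, had 8.13 and 8.13 in ORM arrays, against 6.97 and 7.21 in control arrays. Like EED, ESF1 and CYP4V2 had their higher control value in replicate 2, while PDCD5, ZNF549 and ZNF416 had it in replicate 1. The genes were picked for likeness to EED, so a shared pattern is no separate result. The differences of the 5 genes ran from 0.95 for CYP4V2 to 1.25 for ZNF416. No other PRC2 gene was among them, which follows from the smaller differences of the other members, the largest being 0.29 (SUZ12). With 4 arrays such closeness is a description only.

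The other subunits and inhibitors of PRC2 (PHF1, EPOP, EZHIP, LCOR and LCORL) were measured for 5 of 5 genes, with 0 at an unadjusted limma p under 0.05 and a median difference of 0.08. EZHIP, which blocks the catalytic site of EZH2, had 4.75 and 4.31 in ORM arrays, against 4.11 and 4.34 in control arrays. The overlap came from ORM replicate 2, and the difference was 0.31 (SE 0.21, adjusted p = 0.558). LCOR differed by 0.08.

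PRC1 is the partner complex that ubiquitinates histone H2A and compacts chromatin at Polycomb targets. Of 20 measured subunits of 25 listed, 0 passed the threshold, and 2 were higher and 2 lower in ORM at an unadjusted limma p under 0.05 (10% in each direction, against 6.4% higher and 5.18% lower over all named genes). RNF2 and BMI1 were not among the measured subunits. PCGF2, a subunit of canonical PRC1, had 7.62 and 7.59 in ORM arrays, against 8.25 and 8.49 in control arrays, a difference of -0.77 (SE 0.17, adjusted p = 0.428). L3MBTL2, of a variant PRC1, had 8.06 and 8.38 in ORM arrays, against 7.60 and 7.59 in control arrays, a difference of 0.63 (SE 0.18, adjusted p = 0.428). The groups did not overlap for either subunit, in opposite directions, and neither passed after adjustment. The median of the list was -0.07, and 0.01 without control replicate 2.

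PR-DUB, the deubiquitinase that removes the PRC1 mark, had 0 of 10 measured genes at an unadjusted limma p under 0.05, with differences from -0.30 (HCFC1, adjusted p = 0.506) to 0.27, and KDM1B at 0.23 (adjusted p = 0.568). BAP1, its catalytic subunit, was not among the measured genes. The enzymes that remove methyl groups from lysine 27 or acetylate it in their place were measured for 3 of 4 genes, again with 0. EP300 was not among the measured genes. KDM6B, a demethylase of that residue, had 8.35 and 8.18 in ORM arrays, against 8.04 and 8.98 in control arrays. Its control values differed by far more than the group difference of -0.25 (SE 0.31, adjusted p = 0.754), and CREBBP, an acetyltransferase, differed by -0.15 (adjusted p = 0.766).

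Of the other complexes that use RBBP4 or RBBP7, 24 of 25 genes were measured, with 3 higher and 1 lower at an unadjusted limma p under 0.05 (12.5% and 4.17%), none past the threshold, and a median of 0.16. CHAF1B, of the chromatin assembly factor that deposits histones behind the replication fork, had 9.29 and 9.36 in ORM arrays, against 8.86 and 8.83 in control arrays, a difference of 0.48 (SE 0.16, adjusted p = 0.428). CHD4, the remodeler of the NuRD deacetylase complex, had 9.10 and 9.22 in ORM arrays, against 8.83 and 8.55 in control arrays, a difference of 0.47 (SE 0.18, adjusted p = 0.428). Both sets of ORM values lay above the control values. Without control replicate 2 the list's median was 0.07, with 2 higher and 2 lower.

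SWI/SNF remodelers oppose Polycomb silencing. Of 24 measured subunits, 4 were higher and 0 lower at an unadjusted limma p under 0.05 (16.7% higher), with 0 past the threshold and a median of 0.04 that was -0.05 after quantile normalization. ACTL6A, an actin-related subunit, had 8.05 and 8.26 in ORM arrays, against 7.54 and 7.55 in control arrays, a difference of 0.61 (SE 0.17, adjusted p = 0.428). BCL7A differed by 0.43 (SE 0.16, adjusted p = 0.428).

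The E2F factors and S phase genes include regulators to which the words printed above belong. Of 27 measured genes, 5 were higher and 1 lower in ORM at an unadjusted limma p under 0.05 (18.5% and 3.7%), 0 passed the threshold, and the median was 0.25, or 0.15 after quantile normalization. Both ORM arrays were above both control arrays in 14 genes (51.9%) and below in 3 (11.1%). Over all named genes the shares were 22.4% and 23.6%. They were 29.3% and 21.5% among named genes with a mean log2 signal of 5 or more, and the list's median signal was 9.02. After quantile normalization the counts were 11 (40.7%) and 4 (14.8%), against 23% and 21.4% of all named genes. E2F4, a repressor of the family, had 9.43 and 9.40 in ORM arrays, against 8.95 and 8.70 in control arrays, a difference of 0.59 (SE 0.17, adjusted p = 0.428). CCNE2, a cyclin of S phase entry, had 7.75 and 7.53 in ORM arrays, against 7.21 and 6.97 in control arrays, a difference of 0.55 (SE 0.18, adjusted p = 0.428). Without control replicate 2 the count was 2 higher and 1 lower, with a median of 0.15. Of the 6 members with an E2F word, EZH2, SUZ12 and MTF2 had ORM arrays above control arrays and AEBP2 had them below. EZH1 and PHF19 overlapped, and none of the 6 passed the test. Among the members without such a word, EED and RBBP7 also had ORM arrays above control arrays, and RBBP4 and JARID2 overlapped. That of EED followed from how it was named.

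Developmental genes that PRC2 is known to silence were the last groups. Of the HOX genes, 23 of 39 were measured, with 1 higher and 1 lower at an unadjusted limma p under 0.05 (4.35% each) and a median of -0.12. HOXA2 was the only measured gene of the HOXA cluster, so the list describes mainly the HOXB, HOXC and HOXD clusters. HOXD3 had 3.50 and 3.33 in ORM arrays, against 4.14 and 3.96 in control arrays, a difference of -0.64 (SE 0.17, adjusted p = 0.428). HOXB6 had 5.96 and 5.77 in ORM arrays, against 5.42 and 5.20 in control arrays, a difference of 0.56 (SE 0.18, adjusted p = 0.428). Both ORM arrays were above both control arrays in 4 genes (17.4%) and below in 8 (34.8%). Over all named genes the shares were 22.4% and 23.6%. After quantile normalization the counts were 5 (21.7%) and 6 (26.1%), against 23% and 21.4% of all named genes. Negative differences were 15 of the 23, and 9538 of 17687 over all named genes. Without control replicate 2, 0 were higher and 2 lower (8.7%), so that HOXB6 no longer passed, and the median was -0.16. None passed the threshold.

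Of 45 other developmental targets, 42 were measured, with 1 higher and 3 lower at an unadjusted limma p under 0.05 (2.38% and 7.14%). TBX15, a T-box factor of skeletal development, passed the threshold, with 3.09 and 3.42 in ORM arrays, against 4.22 and 4.73 in control arrays, a difference of -1.22 (SE 0.23, adjusted p = 0.428). Its call was known from earlier results when the list was written, so it is no independent evidence. Both ORM arrays were below both control arrays in 12 genes (28.6%) and above in 1 (2.38%), and after quantile normalization below in 10 and above in 3. Over all named genes the shares were 23.6% below and 22.4% above, and after quantile normalization 21.4% and 23%. The median was -0.12. Without control replicate 2, 0 were higher and 8 lower (19%), with a median of -0.27, against 5.67% higher, 5.68% lower and a median of -0.02 over all named genes.

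Low signals as a whole leaned the same way as these targets. Among the 6012 named genes with a mean log2 signal under 5, the median difference was -0.10. Both ORM arrays were below in 27.8% of them and above in 9.03%. The 11675 brighter genes had a median of 0.02, with both ORM arrays below in 21.5% and above in 29.3%. Without control replicate 2, 1.86% of the dim genes were higher and 7.02% lower at an unadjusted limma p under 0.05, with a median of -0.09. After quantile normalization the median of the dim genes was -0.001 and that of the developmental targets -0.05. Both ORM arrays were then below in 17.3% and above in 17% of the dim genes. For the developmental targets these shares were 23.8% and 7.14%. The median over genes of the mean signal was 5.26 for the developmental targets and 5.24 for the HOX genes. The part of this shift in the values of the target genes was not tested.

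**Figure D5:**
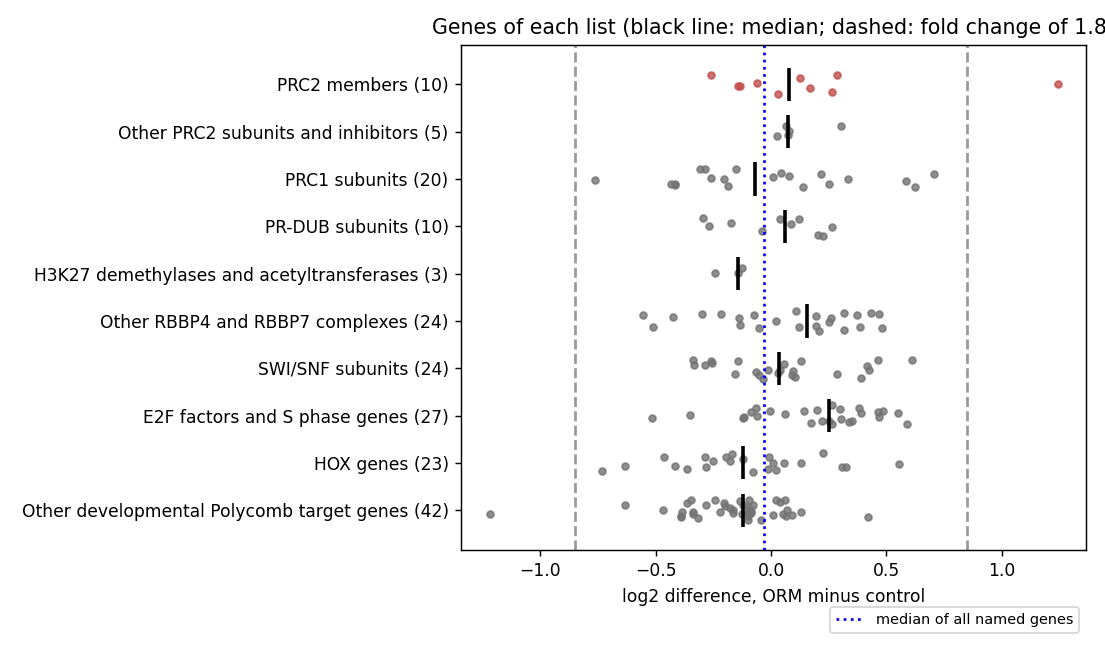
Difference in log2 signal, ORM minus control, of every measured gene of the 10 lists (points, number of genes in brackets), with the list's median as a black line, the median of all named genes (-0.03) dotted and a fold of 1.8 dashed. EED and TBX15 are the 2 points outside the dashed lines, and the medians run from -0.15 for the enzymes acting on lysine 27 to 0.25 for E2F and S phase genes.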

How the data were processed

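RNA of Jurkat cells was measured on 4 human Clariom S arrays, 2 of ORM and 2 of control cells. The values deposited by the authors are log2 signals per probe set, already normalized. RMA and Transcriptome Analysis Console appear in the submitters' processing notes without versions. RNA extraction is described differently in the labels and in the supplementary methods. The study's own fold changes and p-values were not used, except that the supplementary list of called genes supplied the name of the EED probe set. The background correction is as deposited, and the number of arrays limits the precision.

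All 21448 probe sets were fitted by group with limma 3.58.1 (R 4.3.3), using lmFit and then eBayes at their defaults, without covariates or a filter and with p-values adjusted by Benjamini-Hochberg over all of them. A probe set was called when its fold change was over 1.8 in either direction and its two-sided p, before adjustment, under 0.05, as in the study's list. The fit was tested on simulated data. Gene names came from the platform annotation, with 1 symbol for 17709 probe sets and no entry for 3739. A gene with several probe sets was represented by the one with the highest mean. The members and the 14 other lists (241 genes) were chosen with earlier results of these data known. All members were named, and each other list gave at most 4 called genes in order of p, or its first 2 in that order if it had no call. Marker lists were described by counts and levels. Promoters came from RefSeq (GRCh38.p14) and were searched in Python 3.11.15. Other normalizations, filters, tests, thresholds, a replicate block and leaving out each array were tried. The comparison with each control array alone, the list counts without control replicate 2 and the members' intervals under each limma setting were chosen after seeing the data.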

Additional observations from a re-analysis of the deposited data

How the results depend on the processing

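EED, which entered through a list of genes called on these arrays and so had to be called, was the 1 member called under each alternative, which says nothing of its stability, with a difference of 1.25 to 1.31 over the settings that kept all arrays and of 1.06 to 1.44 with 1 array left out. Of 110 values of single members under an alternative, 103 kept their direction and their side of the threshold and 7 turned their sign, all in members that were not called. With 1 array left out, EZH1 ran between -0.49 and 0.20 (0.005 without ORM replicate 1, 0.20 without control replicate 2), JARID2 between -0.245 and 0.125 (0.125 without ORM replicate 2), PHF19 between -0.59 and 0.07 (0.07 without control replicate 2) and RBBP4 between -0.025 and 0.085 (-0.025 without ORM replicate 1, -0.015 without control replicate 1). RBBP4 was -0.052 under quantile normalization. The cause was not tested.

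The count over all probe sets, 151, was 49 with the methods' t-test, 941 at a fold over 1.5 and 68 at a fold over 2. Leaving out 1 array gave 100 (without control replicate 2) to 1009 (without control replicate 1), and 235 without ORM replicate 1. A lone array is then assumed to vary like the other group. The labels number the replicates alike in both groups, but same-numbered arrays did not deviate together (r = 0.093). With 2 arrays in each group this check cannot tell whether same-numbered arrays shared an origin. With the replicate block 162 probe sets were called, 93 higher and 69 lower, and 1 member. Averaging the probe sets of a gene was not run, since each member has 1. Signal over background was not measured here, so it is not known how near background a low value such as that of EED in control arrays lies.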
